A study of Mus musculus with 6 samples.

Results

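The glycolysis enzymes described here are 10 genes, Hk2, Hk3, Gpi1, Pfkl, Aldoa, Gapdh, Pgk1, Pgam1, Pkm and Ldha, taken by name from the 21955 gene rows of each count file. All 10 had a row, and all 10 passed the filter on low counts. The cells were neutrophils of the meninges, taken from the dura mater around the brain of mice with the genotype WT, and their poly-A RNA was sequenced. There were 3 libraries labelled female and 3 labelled male, each from after the mice had met a social threat, and no unexposed library was used. The comparison asks how the cells of the female-labelled libraries differ from those of the male-labelled ones after the threat. The labels give no age and do not say whether a library came from 1 animal or from a pool, so the spread between libraries may be technical.

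Glycolysis splits glucose in the cytosol into pyruvate and yields ATP without oxygen. Neutrophils hold few mitochondria and draw most of their ATP from it, with lactate as the main end product. Hexokinase traps glucose as glucose 6-phosphate, phosphofructokinase commits it to the pathway, aldolase splits the sugar, and the later steps recover ATP and pass pyruvate to lactate dehydrogenase. Triose phosphate isomerase and enolase, the steps not among the 10 genes, are described with the linked lists.

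Each library held 17098026 to 20778410 counts. The 4 Y-linked genes examined summed to 322.4 ± 8.94 CPM (counts scaled to library size with TMM factors) in the female-labelled libraries and 313.2 ± 5.88 CPM in the male-labelled ones (SD, n = 3 each, p = 0.3 by a two-sided exact permutation test that cannot go below 0.1). Y-linked expression thus goes against the label in all 3 female-labelled libraries, and every direction below is between libraries so labelled and cannot be read as one between sexes. Female replicate 3 stood apart from the other libraries of its label, with a chi-square per degree of freedom of 13.4 and 16.5 against them and 5.14 between them. It had the highest CPM of the 6 libraries for 7 of the 10 enzymes, and male replicate 2 had the lowest for 7. Transcripts of the mitochondrial genome made up 7.43 ± 1.04% of all counts in the female-labelled libraries and 11.99 ± 1.23% in the male-labelled ones (SD, n = 3 each, exact permutation p = 0.1, the smallest possible). Of 9 neutrophil markers 8 were higher in the female-labelled libraries (summed 32550 to 41300 CPM, against 27040 to 29910 CPM), S100a9, S100a8 and Retnlg being the most abundant at 19050 ± 2430, 12030 ± 1700 and 1903 ± 209 CPM in the female-labelled libraries, against 15660 ± 1090, 10100 ± 347 and 800.4 ± 64.7 CPM. Of 10 dendritic cell markers 7 were lower (summed 554.6 to 565.6 CPM in the female-labelled libraries, against 738.6 to 746.3 CPM), and of 9 B cell markers 5 were lower (319.5 to 405.7 CPM against 435.6 to 498.6 CPM). Of 8 tested erythroid markers 5 were higher (38.88 to 68.3 CPM against 20.25 to 26.15 CPM), while macrophage markers had 1 higher and 1 lower of 10, T and NK cell markers 1 lower of 9 and stromal markers 1 higher of 6. The most abundant marker of each list was Irf8, Cd37, Hbb-bs, Csf1r, Nkg7 and Pecam1 for dendritic, B, erythroid, macrophage, T and NK, and stromal cells, and no marker with a row was at 0 in all libraries. The part of these differences in the results below was not tested, and in bulk RNA a change in the mix of cells and a change in RNA per cell cannot be told apart.

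Most glycolysis enzymes did not pass the test between the groups, and the changes were small. Pgk1 and Ldha were higher in the female-labelled libraries, by 1.186-fold and 1.191-fold. The other 8 did not pass the test, and their log2 fold changes ran from -0.14 for Pfkl to 0.15 for Aldoa. Of the 10 enzymes, 2 were higher and 0 lower at an adjusted p under 0.05 by edgeR's quasi-likelihood test over all 11903 genes tested. At an unadjusted p under 0.05, 4 were higher and 0 lower, and DESeq2 and limma-voom also gave 2 and 0. Over all genes tested 13.9% passed, 7.29% higher and 6.62% lower, and in a list of 10 each call is 10% of the list, so the count of 2 lies near that background. Over all genes 868 were higher and 788 lower, against 1439 and 1269 without female replicate 3, 503 and 522 without male replicate 1, 486 and 496 without male replicate 2, and 439 and 467 without male replicate 3. The median log2 fold change of the enzymes was 0.08, beside 0 over all tested genes, with 8 above 0 and 2 below. Without female replicate 3 the median was 0.02, with 5 above 0 and 5 below. No value overlapped between the groups for 3 of the 10 enzymes, all 3 higher, against 15.9% of all tested genes.

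**Figure D1:**
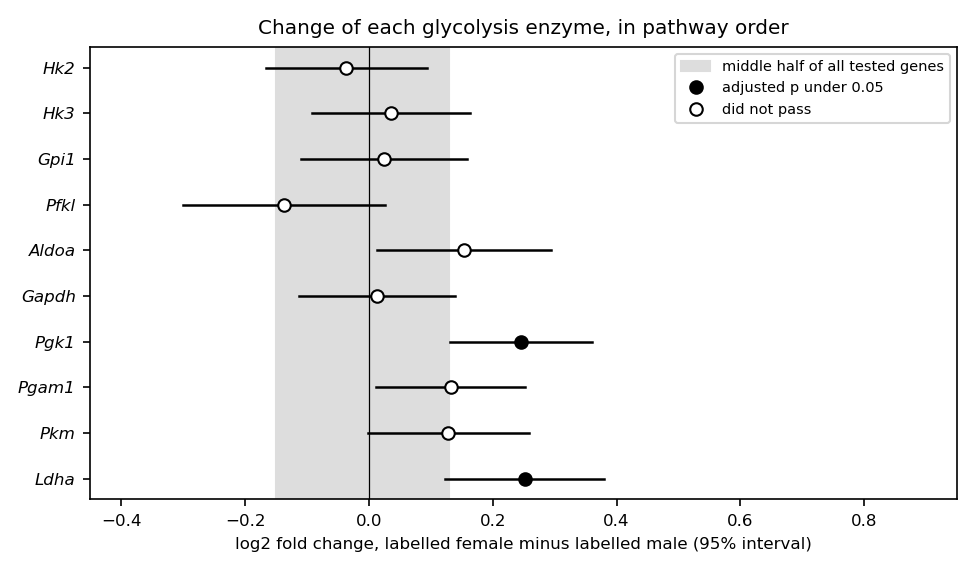
Log2 fold change of each enzyme in pathway order, female-labelled libraries minus the male-labelled ones, with its 95% interval from the edgeR fit; the grey band holds the middle 50% of all tested genes, from -0.15 to 0.13. Pgk1 (0.25) and Ldha (0.25) are the filled points, and the intervals of Hk2, Hk3, Gpi1, Pfkl, Gapdh and Pkm cross 0.

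Among the first steps of the pathway no enzyme passed the test. Hk2 (ENSMUSG00000000628, chromosome 6), a hexokinase known for binding to mitochondria and for its induction by hypoxia and growth signals, had 117.1, 119.3 and 122 CPM in the female-labelled libraries, against 121.4, 115.6 and 130.7 CPM in the male-labelled ones. The values interleave, and the log2 fold change was -0.04 (SE 0.062, 95% interval -0.17 to 0.09). Hk3 (ENSMUSG00000025877, chromosome 13), the hexokinase typical of myeloid cells, had 379.5, 367.9 and 422 CPM in the female-labelled libraries, against 375.8, 370.3 and 394.6 CPM. Both ends of its range lie in female-labelled libraries, and the log2 fold change was 0.04 (SE 0.061, interval -0.09 to 0.16). Gpi1 (ENSMUSG00000036427, chromosome 7), which turns glucose 6-phosphate into fructose 6-phosphate, had 1148, 1122 and 1317 CPM against 1188, 1131 and 1208 CPM. Its high value was that of female replicate 3, with a log2 fold change of 0.02 (SE 0.065, interval -0.11 to 0.16). For all 3 genes the sign of the change turned when 1 library was left out.

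Pfkl (ENSMUSG00000020277, chromosome 10), the liver-type phosphofructokinase, known as the main form in human neutrophils, had the lowest fold change of the 10. It had 46.1, 40.0 and 39.8 CPM in the female-labelled libraries, against 44.6, 45.5 and 48.3 CPM in the male-labelled ones. Female replicates 2 and 3 lay below every male-labelled library and female replicate 1 did not. The log2 fold change was -0.14 (SE 0.078, interval -0.30 to 0.03, adjusted p = 0.269 by edgeR). Aldoa (ENSMUSG00000030695, chromosome 7), the aldolase that splits fructose 1,6-bisphosphate, had 455.9, 470.7 and 555.1 CPM in the female-labelled libraries, against 457.2, 429.7 and 444.5 CPM. Female replicate 3 was the high value, and female replicate 1 lay just below male replicate 1. Its log2 fold change was 0.15 (SE 0.067, adjusted p = 0.14), and 0.06 without female replicate 3 (adjusted p = 0.373).

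**Figure D2:**
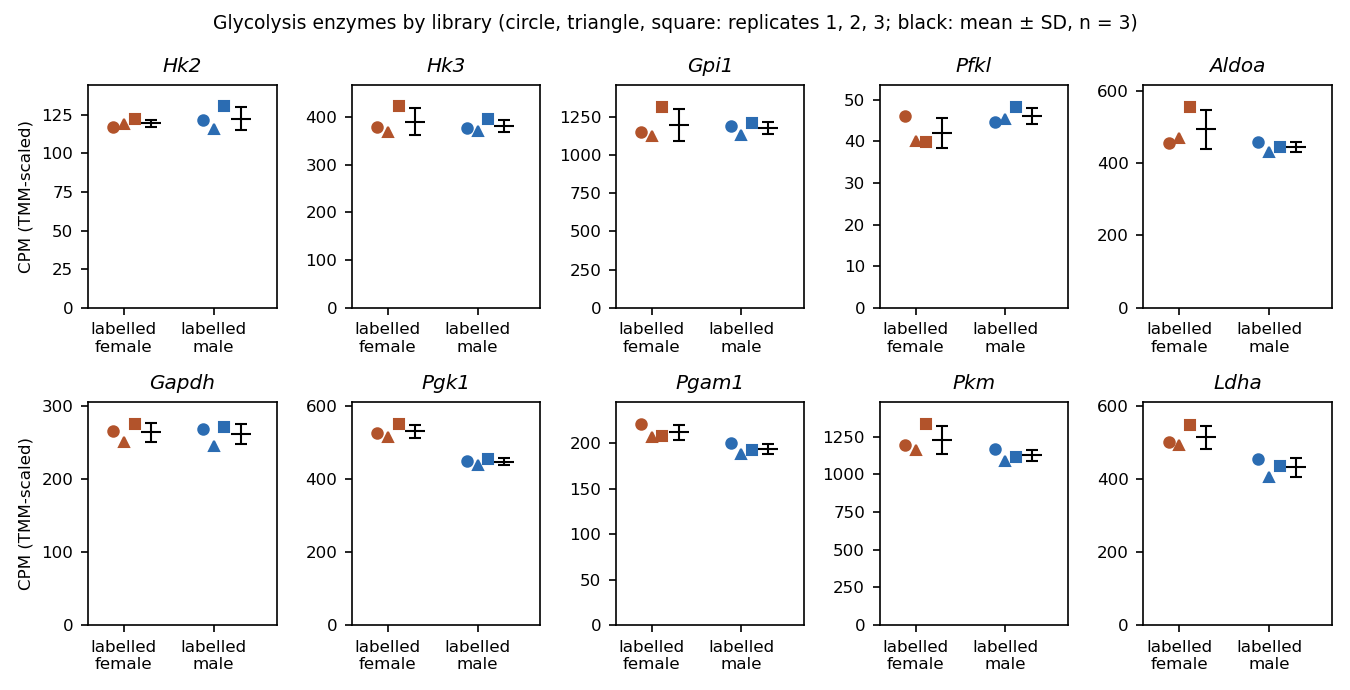
CPM of each enzyme in the 3 female-labelled libraries (left) and the 3 male-labelled ones (right), one panel per gene with its own axis from 0; symbols mark replicates 1 to 3 and black bars give mean ± SD (n = 3). Pgk1, Pgam1 and Ldha are the panels in which all female-labelled libraries lie above all male-labelled ones, and the square of female replicate 3 is the top point for 7 genes.

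In the second stage of the pathway, where ATP is made, Pgk1 and Ldha rose and the means of Gapdh were close. Gapdh (ENSMUSG00000057666, chromosome 6), which oxidises glyceraldehyde 3-phosphate and reduces NAD, had 266, 249.9 and 274.8 CPM in the female-labelled libraries, against 267.8, 245 and 271 CPM in the male-labelled ones. The libraries interleave in full, with a log2 fold change of 0.01 (SE 0.061, interval -0.11 to 0.14). Pgk1 (ENSMUSG00000062070, chromosome X), the phosphoglycerate kinase that makes the first ATP of the pathway, had 527.7, 516.6 and 551.6 CPM in the female-labelled libraries, against 451.4, 438.4 and 456.4 CPM. The groups are separated by a gap wider than the range within either. Pgk1 averaged 532 ± 17.9 CPM in the female-labelled libraries and 448.7 ± 9.33 CPM in the male-labelled ones (SD, n = 3 each), a log2 fold change of 0.25 (SE 0.055, interval 0.13 to 0.36, adjusted p = 0.00474 by edgeR). It passed under all 14 alternatives run, with adjusted p from 4.3e-05 to 0.0444. Pgk1 is the only X-linked gene of the 10, and of 363 X-linked genes tested 9.64% were higher.

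Ldha (ENSMUSG00000063229, chromosome 7), which reduces pyruvate to lactate and restores NAD for Gapdh, had 502.1, 492.7 and 549.8 CPM in the female-labelled libraries, against 456.6, 405.5 and 435.2 CPM in the male-labelled ones. Every female-labelled library lay above every male-labelled library, the nearest being female replicate 2 and male replicate 1. Ldha averaged 514.9 ± 30.6 CPM in the female-labelled libraries and 432.5 ± 25.7 CPM in the male-labelled ones (SD, n = 3 each), a log2 fold change of 0.25 (SE 0.062, interval 0.12 to 0.38, adjusted p = 0.00888 by edgeR). It no longer passed without male replicate 2 (0.21, adjusted p = 0.0821) or male replicate 3 (0.26, adjusted p = 0.0536), which leaves 1 of the 10 enzymes called in either case. Over all 14 alternatives its adjusted p ran from 0.000403 to 0.0821.

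Pgam1 and Pkm had fold changes above 0 that did not pass. Pgam1 (ENSMUSG00000011752, chromosome 19), the phosphoglycerate mutase found in most tissues, had 221.5, 206.9 and 207.8 CPM in the female-labelled libraries, against 199.7, 188.2 and 192.6 CPM in the male-labelled ones. The groups do not overlap, but male replicate 1 and female replicate 2 lie close, and the log2 fold change of 0.13 (SE 0.058) had an adjusted p of 0.142. Without female replicate 3 it passed (0.15, adjusted p = 0.0347), the only such case among its 14 alternatives, and the enzymes called were then 3. Pkm (ENSMUSG00000032294, chromosome 9), the pyruvate kinase of most tissues, had 1195, 1160 and 1334 CPM in the female-labelled libraries, against 1168, 1091 and 1115 CPM. Female replicate 2 lay below male replicate 1, and the log2 fold change was 0.13 (SE 0.062, adjusted p = 0.188), and 0.07 without female replicate 3.

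Summed over the 10 genes, the enzymes had 4859, 4746 and 5373 CPM in the female-labelled libraries, against 4731, 4461 and 4696 CPM in the male-labelled ones. All female-labelled libraries lay above all male-labelled ones, with female replicate 2 and male replicate 1 the nearest pair. As a share of all counts the sum was 0.504 ± 0.0151% in the female-labelled libraries and 0.457 ± 0.0042% in the male-labelled ones (SD, n = 3 each), with no test given for a sum over chosen genes. The total behind that share includes the transcripts of the mitochondrial genome. Within groups the coefficient of variation of single enzymes ran from 2.05% to 10.8%, and the highest library exceeded the lowest by 1.12-fold for Gapdh and 1.36-fold for Ldha, the extremes among the 10.

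Ldha, Pgk1 and Hk2 carry the short sequence ACGTG upstream of a start in the RefSeq table, the core letters of many sites bound by hypoxia-inducible factor, and are shown because Ldha and Pgk1 rose while Hk2, the classic hypoxia-induced hexokinase, did not pass. Each is the 250 bases before a start of the gene, from RefSeq on GRCm38.p6, read 5′ to 3′ on the strand of the gene. Capitals mark ACGTG on either strand, so that CACGTG counts as a match on both.
Ldha, chr7:46845554-46845803, plus strand: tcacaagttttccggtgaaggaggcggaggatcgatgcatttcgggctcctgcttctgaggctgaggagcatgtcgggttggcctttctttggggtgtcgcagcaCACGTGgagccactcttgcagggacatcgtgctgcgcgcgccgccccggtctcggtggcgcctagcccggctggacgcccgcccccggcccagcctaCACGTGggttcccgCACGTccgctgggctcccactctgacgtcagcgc
Pgk1, chrX:106186850-106187099, plus strand: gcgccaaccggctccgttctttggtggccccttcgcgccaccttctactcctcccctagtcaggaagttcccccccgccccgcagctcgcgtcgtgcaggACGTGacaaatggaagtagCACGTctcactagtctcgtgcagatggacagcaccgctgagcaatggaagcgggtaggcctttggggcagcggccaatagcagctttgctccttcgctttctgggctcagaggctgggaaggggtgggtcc
Hk2, chr6:82774455-82774704, minus strand: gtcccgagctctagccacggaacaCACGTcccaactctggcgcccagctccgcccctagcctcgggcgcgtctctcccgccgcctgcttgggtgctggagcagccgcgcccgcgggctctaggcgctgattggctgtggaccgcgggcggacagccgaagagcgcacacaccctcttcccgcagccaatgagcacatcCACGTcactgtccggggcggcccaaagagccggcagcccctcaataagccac
The Ldha window is that of the first of 2 starts in the table, and the bases just after that start were in no GENCODE M21 transcript of Ldha. The window of the other start, which did match a transcript, held 0 matches to ACGTG. The window shown held 5 matches, of which 4 are the strands of 2 copies of CACGTG, and the Pgk1 and Hk2 windows held 2 each. Some window of 7 of the 10 enzymes held ACGTG, the called Pgk1 and Ldha and the uncalled Hk2, Hk3, Aldoa, Pgam1 and Pkm, against 18.5% of 27025 genes in the table. For Pgam1 too, the bases just after the start were in no GENCODE M21 transcript of the gene. The related GCGTG, searched on either strand, was held by 4 of the 10 and by 30.9% of all genes. Both background shares cover every gene of the table, expressed in these cells or not, and the difference from them was not tested. Ldha, Aldoa and Pkm have more than 1 window in the table, and the letters were found in enzymes that rose and in enzymes that did not. A match is a stretch of letters and no binding was measured.

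Levels were compared between genes per kilobase of exon. Pkm, the enzyme of the last ATP-making step, stood first with 235.4 CPM per kb averaged over the 6 libraries (range 218.2 to 266.7), followed by Pgk1 (218.5), Gpi1 (183.8), Aldoa (161.1) and Ldha (143.1). Each of these overlapped with the next over the 6 libraries. Hk3 (104.6) and Pgam1 (102.3) formed a second level, whose ranges overlapped with each other and not with Ldha above or Gapdh below. Gapdh had 63.5, Hk2 20.3 and Pfkl 6.60 CPM per kb, each apart from its neighbours. With the longest transcript as the length Pkm (484.1), Gpi1 (371.1), Aldoa (302.7), Pgk1 (268.7) and Ldha (261) took the first places, and the order of the other 5 was kept.

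The place of Gapdh in that order has to be read with its length and with its copies in the genome. The lengths used for Gapdh were 4133 bases of exon and 3289 for the longest transcript, while its longest coding transcript has 1420. For Hk3 and Pgam1 the longest coding transcript is as long as the longest transcript (3219 and 1775 bases). A shorter length would raise the level of Gapdh, and the order by coding transcript was not computed. Of all 50-base stretches of the longest coding transcript of Gapdh 82.5% occur in transcripts of other annotated genes, 222 genes in all, of which 213 are pseudogenes. The same share was 68.0% for Pgk1, 41.5% for Pgam1, 34.4% for Pkm, 25.3% for Gpi1, 16.6% for Ldha, 13.5% for Aldoa, 0.0543% for Pfkl and 0% for Hk2 and Hk3. How the authors counted reads that fit several places is not stated in any source used here. By the share of such stretches, the levels of Gapdh, Pgk1 and Pgam1 are the least certain. The level of Gpi1 is uncertain in another way. Of the 122 genes that share a stretch with it 2 are pseudogenes, and 88 have a row here. Those rows held 433271 counts over the 6 libraries, against 131654 for Gpi1. Genes sharing a stretch with Pgk1 or Pgam1 had 0 rows. The part of shared sequence in the comparison between groups was not tested. A short second gene also named Aldoa (ENSMUSG00000114515) had between 3 and 23 counts per library and was not added.

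By exon length, the same isozyme led each step in both groups. Hk3 made up 76.7 ± 0.92% of hexokinase CPM per kb in the female-labelled libraries and 75.7 ± 0.23% in the male-labelled ones, with Hk2 at 14.5 ± 0.67% and 15.0 ± 0.45% and the housekeeping form Hk1 at 8.73 ± 0.39% and 9.27 ± 0.50% (SD, n = 3 each). Pfkl shared its step with the platelet form Pfkp: Pfkl took 40.7 ± 2.4% in the female-labelled libraries and 41.2 ± 2.9% in the male-labelled ones, and Pfkp took 46.1 ± 1.6% and 47.7 ± 0.41%. Those ranges are close, and by the longest transcript Pfkl (45.7% and 46.0%) came out just above Pfkp (44.7% and 45.9%). This order rests on the lengths used for Pfkp, 13401 bases of exon and 8681 for the longest transcript. The longest coding transcript of Pfkp has 4145 bases, against 3730 for Pfkl, and a shorter length would raise the share of Pfkp. Before division by length Pfkp had 95.33 CPM in the female-labelled libraries and 107.2 CPM in the male-labelled ones, against 41.96 and 46.15 CPM for Pfkl. Lactate dehydrogenase was the step with the widest gap between the groups. Ldha, the form that favours lactate, took 89.2, 88.1 and 88.3% in the female-labelled libraries, against 85.6, 84.0 and 85.5% in the male-labelled ones. Ldhb, the form of heart and other oxidative tissues, took 9.97 ± 0.64% against 13.4 ± 0.76%. As a single gene Ldhb had 27.51 ± 2.56 CPM in the female-labelled libraries and 32.3 ± 0.784 CPM in the male-labelled ones and did not pass (log2 fold change -0.23, SE 0.088, adjusted p = 0.0902 by edgeR), and the shares were not tested. The shares of Hk3, Aldoa, Eno1 and Pgam1 also did not overlap between groups, by smaller margins, with Pgam1 at 93.6, 94.8 and 94.9% of its step in the female-labelled libraries, against 91.2, 93.0 and 93.0% in the male-labelled ones. Aldoa, Pkm, Gapdh and Pgk1 each made up over 99% of their step in every library.

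**Figure D3:**
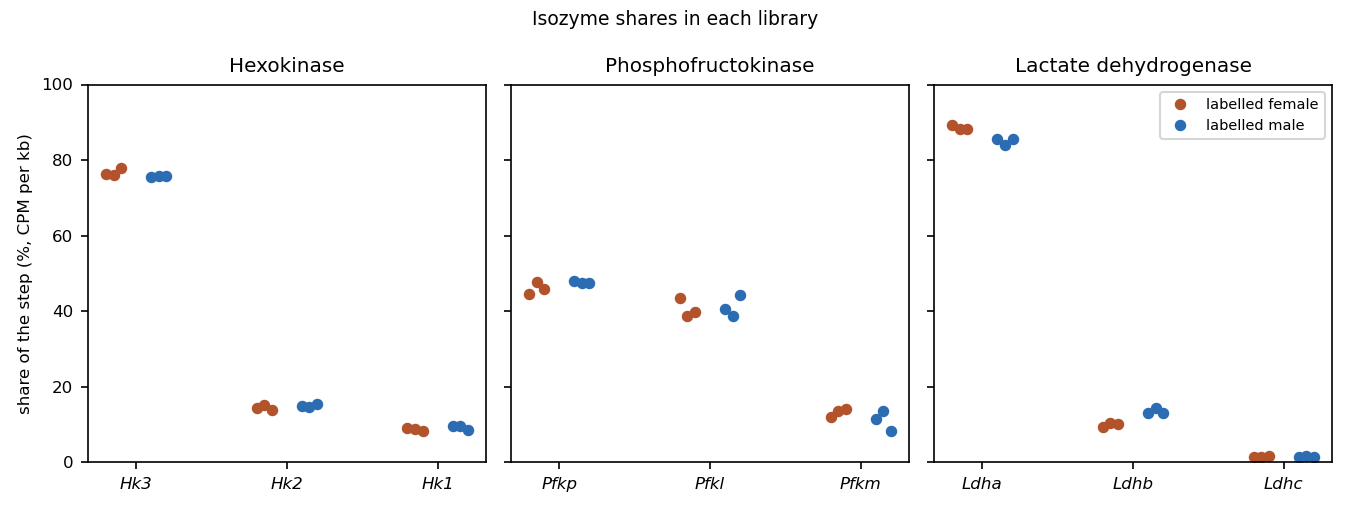
Share of each isozyme in the summed CPM per kb of exon of its step, in percent, 1 point per library, female-labelled libraries at the left of each pair. Hk3 is at 75.4 to 77.8% of hexokinase in all 6 libraries, Pfkl and Pfkp are at 38.8 to 48.1%, and Ldha has the widest gap between groups, at 88.1 to 89.2% against 84.0 to 85.6%.

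The genes around the enzymes were read in 8 linked lists of 103 genes. The background for each list is the 7.29% higher and 6.62% lower over all genes tested, and in a short list each call is a large share. Of the 84 genes of the 8 lists that were tested, edgeR called 16 higher and 4 lower, with a median log2 fold change of 0.08. The counts were 22 and 9 without female replicate 3, and 9, 9 and 8 were higher without male replicate 1, 2 and 3. Of the 16 higher genes 15 belonged to transport, the pentose phosphate pathway and glycogen turnover. Of the 13 tested enzymes of glycolysis outside the 10 genes, 0 passed in either direction by edgeR (2 higher and 3 lower at an unadjusted p under 0.05, 1 higher by DESeq2 and 0 by limma-voom). With edgeR, 2 were lower without female replicate 3 or with a filter of 10 CPM, 1 was higher without female replicate 2, and 1 was higher and 1 lower with no filter on low counts or with a replicate block. Adpgk, an ADP-dependent glucokinase, was the most abundant of them by CPM at 1309 ± 169 CPM in the female-labelled libraries and 1135 ± 42.4 CPM in the male-labelled ones (adjusted p = 0.0693). Eno1, the main enolase, had 726.1 ± 30.8 against 657.2 ± 26.6 CPM (log2 fold change 0.14, adjusted p = 0.105), and shares 72.2% of its 50-base stretches with other genes. Tpi1, the triose phosphate isomerase, had 240.8 ± 5.27 against 238.7 ± 14.1 CPM (log2 fold change 0.01, SE 0.059).

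Carriers of glucose and lactate had 5 of 10 tested genes higher and 0 lower by edgeR (0 lower also at an unadjusted p under 0.05, by DESeq2 and by limma-voom) and a median log2 fold change of 0.21. Slc16a3, the lactate exporter MCT4, had 160, 145.2 and 188.5 CPM in the female-labelled libraries, against 85.7, 79.3 and 90.6 CPM in the male-labelled ones (log2 fold change 0.95, SE 0.081, adjusted p = 6.37e-08). Its lowest female-labelled library exceeded its highest male-labelled one by more than the spread within either group. The glucose carriers Slc2a1 (37.75 ± 2.52 against 27.06 ± 3.69 CPM) and Slc2a3 (456.7 ± 49.2 against 357.9 ± 17.9 CPM) rose with log2 fold changes of 0.48 and 0.35. Emb, a partner protein of lactate carriers and the most abundant of the list, had 528.1 ± 13.8 against 443.6 ± 6.17 CPM (log2 fold change 0.25, adjusted p = 0.00344). The lactate carrier Slc16a1 had a log2 fold change of 0.26 (adjusted p = 0.031). Its call was lost without female replicate 1 or 2 (adjusted p = 0.0529 and 0.184) or male replicate 1 or 3 (0.157 and 0.104), while the other 4 passed under all 14 alternatives.

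**Figure D4:**
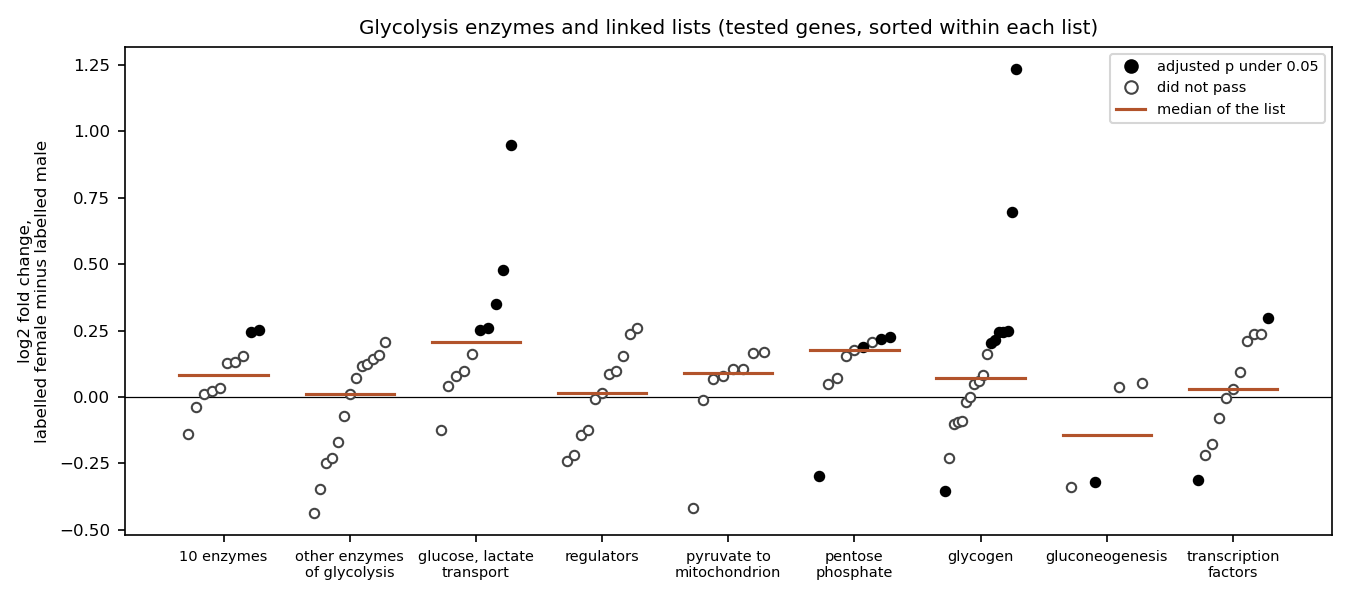
Log2 fold change, female-labelled libraries minus the male-labelled ones, of every tested gene of the 10 enzymes and of the 8 linked lists, sorted within each list, with filled points for an adjusted p under 0.05 and a line at each list's median. The tallest points are Ppp1r3b (1.23) in the glycogen list and Slc16a3 (0.95) among the carriers, and the enzymes themselves stay between -0.14 and 0.25.

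Of 9 pentose phosphate genes 3 were higher and 1 lower, with a median log2 fold change of 0.18. G6pdx, the first and rate-limiting enzyme, had 384.1 ± 17.9 CPM in the female-labelled libraries and 328.3 ± 4.08 CPM in the male-labelled ones (log2 fold change 0.23, adjusted p = 0.00998). Pgd, which makes the second NADPH of the pathway, had a log2 fold change of 0.22 (699.2 ± 47 against 601.3 ± 17.5 CPM) and the epimerase Rpe one of 0.19. The lactonase gene Pgls was lower (59.22 ± 11.2 against 72.74 ± 1.46 CPM, log2 fold change -0.30). The transketolase Tkt, the most abundant of the list, had 785.5 ± 60.3 against 758.8 ± 36.3 CPM and did not pass (log2 fold change 0.05). All 4 calls were lost without male replicate 1, 2 or 3 (adjusted p from 0.0516 to 0.186), which leaves 0 genes called in either direction by edgeR (5 higher and 1 lower at an unadjusted p under 0.05 in the fit of all 6 libraries). The calls of Rpe (0.111 and 0.0855) and Pgls (0.196 and 0.115) were also lost without female replicate 1 or 2, and 5 genes were higher without female replicate 3. Rpe was also lost with upper-quartile factors (adjusted p = 0.0653) and without mitochondrially encoded genes (0.0574).

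Of 18 genes of glycogen turnover 7 were higher and 1 lower, with a median log2 fold change of 0.07. Ppp1r3b, which directs a phosphatase to glycogen and favours its synthesis, had 47.4, 38.6 and 46.9 CPM in the female-labelled libraries, against 15.1, 19.5 and 21.9 CPM in the male-labelled ones (log2 fold change 1.23, SE 0.11, adjusted p = 1.74e-07). It had the largest change among the tested genes of the 8 lists. Ppp1r3d, of the same family, had a log2 fold change of 0.70, and the phosphorylase kinase subunit Phka2 one of -0.35, and all 3 passed under all 14 alternatives. Pygl, the glycogen phosphorylase of liver and leukocytes and the most abundant of the list, had 733.1 ± 57.7 against 616.6 ± 34.5 CPM (log2 fold change 0.25), which did not pass without male replicate 2 (adjusted p = 0.101). The primer protein Gyg, the branching enzyme Gbe1 and Ugp2, which makes UDP-glucose, had log2 fold changes of 0.24, 0.21 and 0.20. Gyg no longer passed without male replicate 2 or 3 (adjusted p = 0.0545 and 0.0596), nor did Ugp2 without female replicate 1 or male replicate 1, 2 or 3 (0.0608, 0.051, 0.121 and 0.109). Gbe1 passed in 5 of 14 alternatives, and not without female replicate 1 or 2 or male replicate 1 or 3 (adjusted p = 0.11, 0.07, 0.205 and 0.156). Its call was also lost by DESeq2, by limma-voom, with upper-quartile factors, with a filter of 10 CPM and without mitochondrially encoded genes. In each of those settings 6 genes of the list were higher. The genes called higher were 4 without male replicate 1 and 3 without male replicate 2 or 3, and those called lower were 2 without female replicate 3.

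The other lists held few calls. Of 11 tested regulators, among them the Pfkfb enzymes that set the main activator of phosphofructokinase, and of 8 genes that bring pyruvate into the mitochondrion, 0 passed by edgeR, DESeq2 or limma-voom (1 higher and 1 lower, and 2 higher and 0 lower, at an unadjusted p under 0.05). Without female replicate 3, 1 regulator was higher and 1 lower, and 2 of the pyruvate genes were higher. The most abundant of these lists were Txnip, a brake on glucose uptake, at 182.2 ± 5.32 against 198.5 ± 3.63 CPM, and Dld, a subunit of the pyruvate dehydrogenase complex, at 121.5 ± 3 against 108.2 ± 7.35 CPM. In gluconeogenesis Pck2, the mitochondrial form of its carboxykinase and the most abundant of the list, was lower at 40.55 ± 1.81 CPM against 50.57 ± 1.13 CPM (log2 fold change -0.32, adjusted p = 0.00495). Of 11 transcription factors and oxygen sensors tested, Hif1a was higher (108.5 ± 6.24 CPM in the female-labelled libraries and 88.36 ± 4.16 CPM in the male-labelled ones, log2 fold change 0.30, adjusted p = 0.0039). Mlxip, a sensor of glucose 6-phosphate with the highest mean CPM of that list over the 6 libraries, though below Hif1a in each female-labelled library, was lower at 89.11 ± 5.44 against 110.6 ± 2.37 CPM (log2 fold change -0.31, adjusted p = 0.00197). Pck2, Hif1a and Mlxip passed under all 14 alternatives. The factors called were 2 higher and 2 lower without female replicate 3, and 3 were higher with no filter on low counts or with a replicate block.

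The genes whose levels over the 6 libraries were most like those of Ldha, whose log2 fold change was the largest of the 10 by less than its SE, were Sh3bp5, Mff, Rab3d, Rab11a and Impa1. Their centred log2 CPM differed from that of Ldha by a root mean square of 0.017, 0.022, 0.024, 0.024 and 0.027 over 6 libraries, the smallest among 7348 genes. Their log2 fold changes were 0.23, 0.24, 0.24, 0.28 and 0.23. Without female replicate 3, male replicate 2 or male replicate 3 the fold change of Pgk1 was the larger (0.2195, 0.2294 and 0.2585 for Pgk1, against 0.2028, 0.2078 and 0.2569 for Ldha). Likeness over 6 libraries is a description of these libraries.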

How the data were processed

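The authors deposited raw counts per Ensembl gene, 1 file per library with 21955 identifiers and no normalization. The submitters' processing notes list cutadapt 1.15, HISAT2 2.0.5 and the build GRCm39 without role or order. No source used here states which tool counted the reads, or whether strand or reads with several matches were taken into account. GENCODE M21, on the older build GRCm38, named 21847 identifiers and gave chromosomes and exon lengths, and 196 of 200 list entries matched a row.

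Counts were fitted in edgeR 4.0.16 (R 4.3.3) with TMM factors, filterByExpr at a minimum count of 10, a quasi-likelihood fit with the label group as the only term and Benjamini-Hochberg adjustment over all 11903 tested genes at a threshold of 0.05. A log2 fold change above 0 means a higher level in the female-labelled libraries, and its SE was taken from the F statistic. Depth was 17098026 to 20778410 counts per library. Each library counted as 1 replicate. No pair with the same label was alike within counting noise (lowest chi-square per degree of freedom 4.1), which cannot show that the libraries came from different animals. The fit was tested on simulated data. There it called 27.3% of 99 genes given a 1.2-fold change, 82.8% of 99 given a 1.5-fold change and 0.0259% of 11590 unchanged genes. Far fewer genes changed there than the 13.9% that passed in the data, which makes the adjusted threshold stricter. Dispersion followed the fitted trend, and no library was made to stand apart as female replicate 3 did. These shares are therefore not the power or the false call rate for the enzymes. Alternatives were DESeq2 1.42.0 and its size factors, limma-voom (limma 3.58.1), upper-quartile factors, other filters, a threshold of 0.01, counts without mitochondrially encoded genes, a replicate block and leaving out each library.

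The enzymes and lists were chosen with earlier results of these data known. The text names all 10 enzymes and, of each linked list, the called genes and the most abundant gene. Of these, 1 gene of the glycogen list is not reported here. The text also names the 5 genes with a mean of at least 4 log2 CPM that were most like the enzyme with the largest change. Eno1, Tpi1 and Ldhb, and the isozymes set beside the enzymes, were added to that rule after their values were seen.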

Additional observations from a re-analysis of the deposited data

How the results depend on the processing

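Pgk1 kept its direction and its call under all 14 alternatives (log2 fold change 0.22 to 0.27), and Ldha lost its call only without male replicate 2 or 3. The enzymes called higher ranged from 1 to 3 when 1 library was left out and those called lower stayed at 0 by edgeR (0 also at an unadjusted p under 0.05). Over all genes the calls ranged from 439 to 1439 higher and from 467 to 1269 lower, and over the 8 linked lists from 8 to 22 higher and from 3 to 9 lower. At an adjusted p under 0.01, 410 of all genes were higher and 410 lower, and 9 were higher in the linked lists. Some uncalled log2 fold changes close to 0 changed sign when 1 library was left out, with ranges of -0.077 to 0.0127 for Hk2, -0.0241 to 0.0777 for Hk3, -0.0498 to 0.0698 for Gpi1 and -0.0312 to 0.0515 for Gapdh, and Gapdh also did so with upper-quartile factors or a filter of 10 CPM (-0.0017 each). The cause was not tested. With the longest transcript as length, the share of its step was 72.6% and 71.4% for Hk3, 45.7% and 46.0% for Pfkl and 92.2% and 89.6% for Ldha in the female-labelled and male-labelled libraries. Leaving out 1 library moved the difference in mitochondrially encoded share and in Y-linked sum by less than the spread between libraries. The replicate numbers did not pair the libraries (correlations of same-numbered deviations -0.03, 0.09 and 0.08, and not every library correlated best with its own number). With the replicate block 2 enzymes were higher and 0 lower, 20 and 5 linked genes, and 1007 and 914 of all genes, and no other call of an enzyme changed. With 3 libraries a group, the SE of an enzyme's log2 fold change was 0.0553 to 0.0784, which limits the test for changes of this size.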
